A study of Mus musculus with 32 samples.

Results

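The genes described here are 10 transcripts known from the fibroblasts of the meninges, Foxc1, Six2, Aldh1a2, Car13, Cp, Gjb2, Slc13a4, Arhgap29, Dab2 and Dapl1, out of 24062 genes counted in each library. They were chosen by name because they stood far above whole cortex in RNA purified from S100a10 cells, so that their excess over whole cortex is given below as a description and not as a test. The 32 libraries came from cortices of adult male S100a10 bacTRAP mice (Tg(S100a10-EGFP/Rpl10a)ES691Htz), in which the regulatory elements of S100a10 drive a ribosomal protein, L10a, fused to EGFP. Translating ribosome affinity purification (TRAP) pulls down the tagged ribosomes with their mRNA, whichever cell type of the dissected cortex expresses the transgene. Input is RNA of the whole cortex before the pull-down.

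Sh + Flx anxious mice were housed singly from weaning, drank fluoxetine, a serotonin reuptake inhibitor, at 0.167 g/L for 21 days, and were classed by the study as anxious from their behavior. Sh + Flx mice had the same housing and drug and were not classed as anxious. Sh mice were housed singly and received vehicle. Gh mice were group-housed and received vehicle. All groups carried the transgene, and each group had 4 TRAP and 4 input libraries, for each of which cortices of 3 mice were combined after the hippocampi and striata had been removed. Because the classification followed treatment, the anxious label and the response to the drug cannot be told apart.

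Meningeal fibroblasts form the pia and arachnoid layers that cover the cortex and follow its larger vessels inward. They arise in part under the forkhead factor Foxc1, lay down collagen and other matrix, carry solutes between cerebrospinal fluid and tissue through many membrane transporters, and are coupled by gap junctions. They are also a source of retinoic acid, which Aldh1a2 makes from retinaldehyde and which acts on the cortex during its development.

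Reads counted in genes numbered 9776244 to 64788703 per TRAP library and 19265435 to 34515281 per input library. Sh TRAP 2 and Sh TRAP 3 stood apart. The tagged gene S100a10 (chromosome 3, 93555117 to 93564645, GRCm38) had 20.4 and 11.2 CPM (counts of a gene relative to each 1000000 counted in genes) in these, 41.5 to 73.0 CPM in the other 14 TRAP libraries and 5.45 to 10.3 CPM in input. The nuclear RNA Malat1 had 25397 and 40707 CPM in Sh TRAP 2 and Sh TRAP 3, against 3106 to 8117 CPM in the other TRAP libraries and 25765 to 45584 CPM in input. The calls against Sh among the 10 genes are therefore given with and without them. Gh TRAP 2 and Gh TRAP 3 differed by little more than sampling noise (mean chi-square per gene 1.13). Their counts were summed and taken as 1 sample, which leaves n = 3 for Gh TRAP. The next most alike pair was Sh TRAP 1 and Sh TRAP 4 (2.17), which were kept as separate samples.

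The 10 genes together held 3123 to 4860 CPM in 14 TRAP libraries, 1414 and 1644 CPM in Sh TRAP 2 and Sh TRAP 3, and 86.6 to 110.7 CPM in input. For each of the 10, every TRAP library lay above every input library, and Sh TRAP 2 and Sh TRAP 3 were the lowest of the 16 TRAP libraries. Of all 16754 genes tested in TRAP, 19.9% had these same libraries lowest. In bulk samples, fewer cells of a type and less RNA per cell cannot be told apart.

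**Figure D1:**
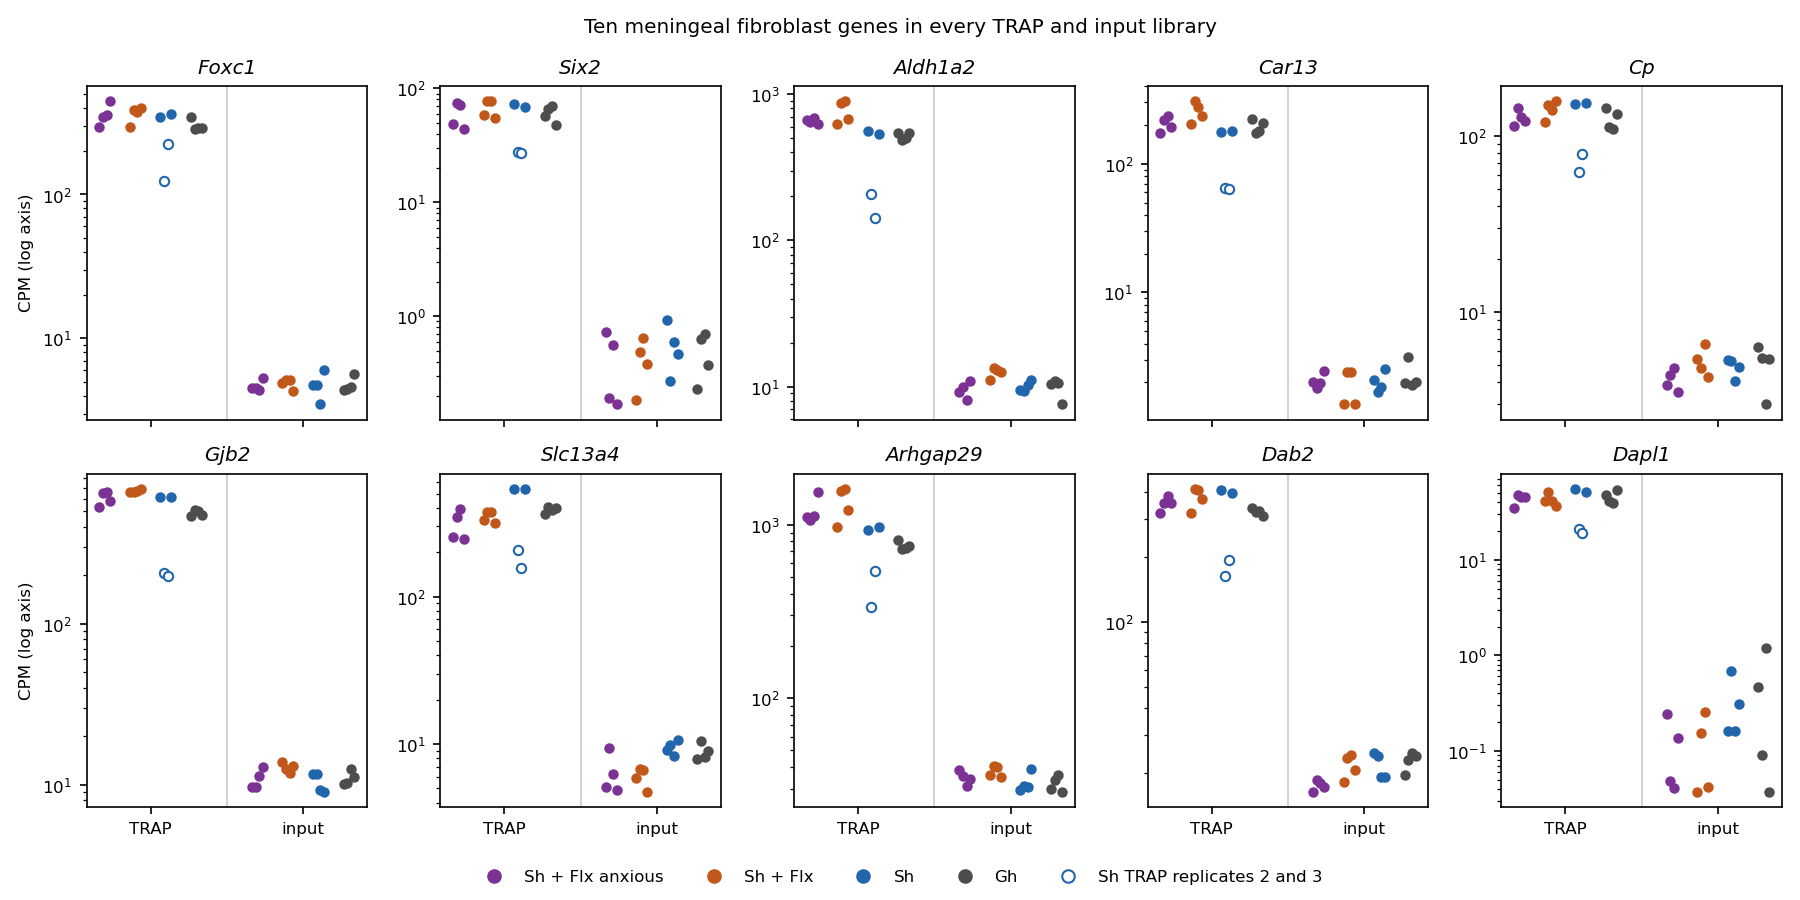
CPM (log axis) of the 10 genes in every TRAP library (left of the line) and input library (right), colored by group. Every TRAP point lies above every input point, and Sh TRAP 2 and Sh TRAP 3 are the lowest TRAP points in each panel; for Six2, for example, they had 27.5 and 26.9 CPM, the other TRAP libraries 43.7 to 77.2 CPM and input 0.169 to 0.924 CPM.

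Foxc1 (chromosome 13, 31806646 to 31810635), a forkhead transcription factor needed to form the meninges, had 285, 347 and 445 CPM as lowest, median and highest of 14 TRAP libraries, 123 and 224 CPM in Sh TRAP 2 and Sh TRAP 3, and 3.48, 4.69 and 6.07 CPM as lowest, median and highest of input. Six2 (chromosome 17, 85662736 to 85688254), a homeobox transcription factor, had 43.7, 67.5 and 77.2 CPM in the 14 TRAP libraries and 0.169, 0.479 and 0.924 CPM in input. Both factors were far above whole cortex in all 4 groups, with log2 fold changes in Gh of 5.77 for Foxc1 and 6.67 for Six2, the largest of the 10. The forkhead relatives Foxc2 (6.11) and Foxd2 (6.12) had differences of the same size, whereas the forkhead gene Foxp1 had a log2 difference of 0.07.

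Among the enzymes, Aldh1a2 (chromosome 9, 71215789 to 71296243), the retinaldehyde dehydrogenase that makes retinoic acid, had 486, 622 and 895 CPM in the 14 TRAP libraries, 207 and 141 CPM in Sh TRAP 2 and Sh TRAP 3, and 7.57, 10.5 and 13.3 CPM in input. Car13 (chromosome 3, 14641727 to 14663002), a cytosolic carbonic anhydrase, had 173, 205 and 307 CPM in the 14 TRAP libraries and 1.34, 1.99 and 3.13 CPM in input. Cp (chromosome 3, 19956933 to 20009750), the ferroxidase ceruloplasmin, had 110.2, 138 and 158 CPM in the 14 TRAP libraries and 2.97, 4.84 and 6.54 CPM in input. The log2 fold changes of TRAP over input in Gh were 5.49 for Aldh1a2, 6.24 for Car13 and 4.45 for Cp. Relatives did not share this in a uniform way, since Aldh1a1 differed by 2.33, Heph by 2.39 and Car14 by 1.30, while Car2, the carbonic anhydrase of oligodendrocytes, differed by -1.60.

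Gjb2 (chromosome 14, 57098602 to 57104702) encodes the gap junction protein connexin 26 and had 467, 617 and 687 CPM in the 14 TRAP libraries, against 8.98, 11.5 and 13.9 CPM in input. Slc13a4 (chromosome 6, 35267953 to 35308126), a sodium-coupled sulfate transporter, had 246, 375 and 537 CPM in the 14 TRAP libraries, against 4.71, 8.06 and 10.7 CPM in input. Both were between the extremes of the 10, with log2 fold changes in Gh of 5.21 for Gjb2 and 5.20 for Slc13a4. Gjb6, the connexin 30 gene that meningeal cells and astrocytes share, differed by 4.03, and the dicarboxylate transporter gene Slc13a3 by 4.95.

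Arhgap29 (chromosome 3, 121953113 to 122016677), a GTPase-activating protein for RhoA, had 723, 1016 and 1604 CPM in the 14 TRAP libraries and 28.6, 34.5 and 40.3 CPM in input. Dab2 (chromosome 15, 6299788 to 6440715), a clathrin adaptor for receptors of the LDL receptor family, had 311, 356 and 412 CPM in the 14 TRAP libraries and 16.3, 20.2 and 24.9 CPM in input. These were the least enriched, with log2 fold changes in Gh of 4.34 for Arhgap29 and 3.59 for Dab2. The relative Arhgap28 differed by 4.94, whereas Dab1, a neuronal adaptor of reelin signaling, differed by -1.61.

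Dapl1 (chromosome 2, 59484653 to 59505020), a small protein related to Dap, had 34.8, 45.2 and 55.1 CPM in the 14 TRAP libraries and 0.0368, 0.157 and 1.20 CPM in input. Its log2 fold change of TRAP over input in Gh was 6.53. Dapl1 was too low in input to be tested there and entered the joint fit through its TRAP libraries.

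When CPM was divided by the summed exon length, the order of levels in Gh TRAP was Aldh1a2, Gjb2, Arhgap29, Slc13a4, Car13, Dapl1, Foxc1, Dab2, Six2 and Cp. Aldh1a2 had 232 ± 12.96 and Gjb2 200.2 ± 9.10 CPM per kilobase (SD, n = 3), against 20.7 ± 2.65 CPM per kilobase for Cp at the low end. Car13 (87.7 ± 10.2), Dapl1 (83.1 ± 11.9) and Foxc1 (77.1 ± 8.10 CPM per kilobase) each differed by less than 1 SD from the next of these.

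The promoters of Aldh1a2, Arhgap29, Gjb2 and Slc13a4 are shown, since these members were called in TRAP in comparisons between groups below. Car13, which was also called there, has no listed promoter, and that of Dab2, called in input alone, is not printed. Each is the 250 bases before a start site in RefSeq (GRCm38.p6), read 5′ to 3′ on the strand of the gene: Aldh1a2 at chr9:71215539-71215788, plus strand; the first of the listed Arhgap29 starts at chr3:121952979-121953228, plus strand; Gjb2 at chr14:57104703-57104952, minus strand; and Slc13a4 at chr6:35308127-35308376, minus strand. Capitals mark matches, on either strand, to CCAAT (bound by NF-Y), the GC box GGGCGG (bound by Sp factors), the TATA box TATAAA, the forkhead motif TGTTTAC, the TEAD factor motif GGAATG and the nuclear receptor motif AGGTCA.
Aldh1a2: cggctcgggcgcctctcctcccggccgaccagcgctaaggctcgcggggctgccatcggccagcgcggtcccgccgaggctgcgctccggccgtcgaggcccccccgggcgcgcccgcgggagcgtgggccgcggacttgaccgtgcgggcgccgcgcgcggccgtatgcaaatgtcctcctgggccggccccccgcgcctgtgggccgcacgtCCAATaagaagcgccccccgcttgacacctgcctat
Arhgap29: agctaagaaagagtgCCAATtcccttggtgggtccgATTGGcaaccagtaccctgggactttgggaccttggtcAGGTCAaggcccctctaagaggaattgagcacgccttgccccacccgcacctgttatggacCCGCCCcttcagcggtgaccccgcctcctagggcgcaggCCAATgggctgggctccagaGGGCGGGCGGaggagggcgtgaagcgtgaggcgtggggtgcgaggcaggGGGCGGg
Gjb2: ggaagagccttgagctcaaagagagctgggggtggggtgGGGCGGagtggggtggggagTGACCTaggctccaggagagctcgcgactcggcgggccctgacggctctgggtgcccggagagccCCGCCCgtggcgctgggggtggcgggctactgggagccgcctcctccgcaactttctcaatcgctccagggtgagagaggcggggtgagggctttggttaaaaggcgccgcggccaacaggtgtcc
Slc13a4: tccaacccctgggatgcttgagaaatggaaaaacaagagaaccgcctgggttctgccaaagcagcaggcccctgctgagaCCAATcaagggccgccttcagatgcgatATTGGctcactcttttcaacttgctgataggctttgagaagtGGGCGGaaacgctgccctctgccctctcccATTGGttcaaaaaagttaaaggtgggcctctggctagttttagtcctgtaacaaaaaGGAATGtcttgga
The Aldh1a2 promoter held a single CCAAT match, 36 bases before the start, and was 77.6% G or C, against a median of 52.4% over 32851 promoters. The Arhgap29 promoter held 8 matches, among them a pair of GGGCGG matches that overlap each other, and 1 AGGTCA match. The Gjb2 promoter held GGGCGG and AGGTCA matches, and the Slc13a4 promoter 3 CCAAT matches, 1 GGGCGG match and 1 GGAATG match. Of the 9 members with a listed promoter, which leaves out Car13, 6 held CCAAT and 6 held GGGCGG, motifs found in 33.8% and 32.7% of all promoters, and 2 each held TATAAA (12.4% of all promoters), GGAATG (12.6%) and AGGTCA (14%). A member was counted if any of its listed promoters held the motif, whereas the shares count each promoter. Arhgap29, Cp and Dab2 have more than 1 listed promoter, which raises their chance of a match. The forkhead motif TGTTTAC, in 3.17% of all promoters, was found in Dapl1 alone of these 9. A motif that was not found says only that these letters are not in this window.

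RNA of the purified cells, which the study describes as S100a10 neurons of layer 5a, was set against marker lists. The neuronal list holds markers of excitatory cortical neurons at large, so it cannot test the layer 5a label. Of 36 further meningeal fibroblast markers, 36 were higher in TRAP than in input in Gh, with a median log2 fold change of 5.22, as against 5.35 for the 10 genes and -0.06 for all 17015 genes tested. With edgeR, 42.2% of all genes had an adjusted p below 0.05 in either direction in this comparison, 20.3% higher and 21.9% lower. All 10 genes passed in each group, and since they were chosen on this contrast nothing is read from that count. The marker lists were also chosen with earlier results of these data known, so their counts are descriptions too. Of 12 transporters of fibroblasts, 12 were higher (median 4.82). Of 12 markers of excitatory cortical neurons, 0 were higher and 9 were lower (median -0.60), and Snap25 and Camk2a differed by -0.46 and -0.40. Summed, these 12 held 19750 to 24380 CPM in Gh TRAP, against 10040 to 12080 CPM for the 36 fibroblast markers. Gh input had 25510 to 27540 CPM. Their sums in TRAP and input were 24030 to 32110 and 22940 to 26690 CPM in Sh + Flx anxious. In Sh + Flx they were 20130 to 25510 and 23610 to 24530 CPM, and in Sh 18060 to 19670 and 22200 to 25700 CPM.

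Markers of other cells in the meninges and vessels were also above input, by smaller medians: 10 of 12 endothelial markers were higher (median 2.44), as were 4 of 8 border macrophage markers (2.38), 4 of 6 arachnoid barrier markers (2.30) and 7 of 13 mural cell markers (1.27, with 1 lower). Choroid plexus markers were mixed, with 3 higher and 3 lower of 11 (median -0.46), and oligodendrocyte markers were lower for 8 of 8 (median -1.43). Among named genes, the prostaglandin D synthase gene Ptgds had 3205 to 8270 CPM in 14 TRAP libraries and 59.1 to 124.8 CPM in input, and Igf2 had 765 to 2422 CPM in TRAP and 31.3 to 97.2 CPM in input. Both encode secreted proteins.

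**Figure D2:**
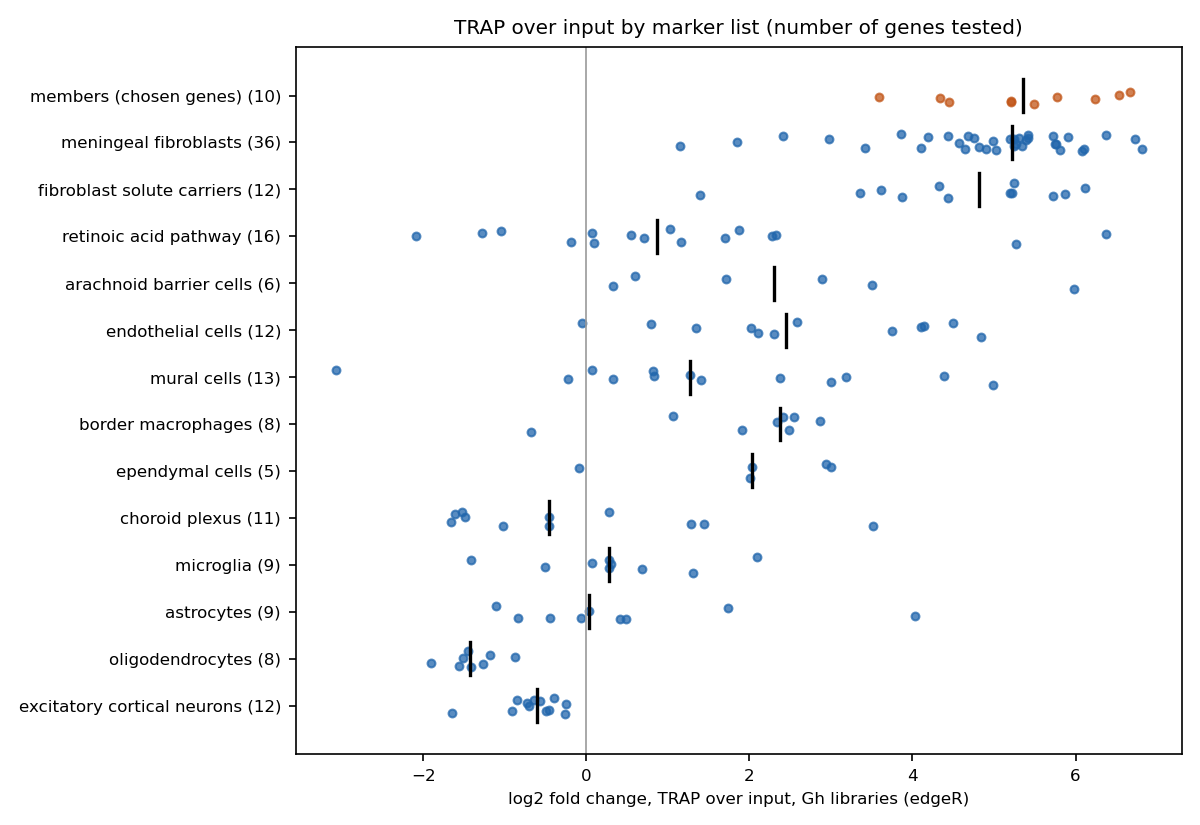
Log2 fold change of TRAP over input in Gh (x axis) for each tested gene (points) of the 10 chosen genes and of 13 marker or pathway lists, with the median of each list as a black line. The 10 genes lie between 3.59 and 6.67 and the other meningeal fibroblast markers have a median of 5.22, while the medians of oligodendrocytes (-1.43) and excitatory neurons (-0.60) are below 0.

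The excess over input was present in each group. The median log2 fold change of the 10 genes was 5.76 in Sh + Flx anxious, 5.69 in Sh + Flx, 5.09 in Sh and 5.35 in Gh, where 50.8%, 51.9%, 40.1% and 42.2% of all genes passed in either direction. The ranks of the 10 among 17015 genes in Gh ran from 54 (Six2) to 592 (Dab2). Whether a change between groups differed between TRAP and input, in either direction, was tested directly. Such a difference was found with edgeR for 0 of the 10 genes in Sh + Flx anxious against Gh (0.0294% of all genes), 0 in Sh + Flx against Gh (0.0529%) and 0 in Sh against Gh (0.0235%). At an unadjusted p below 0.05 the counts were 2, 1 and 0, and DESeq2 found 0 in each. Without Sh TRAP 2 and Sh TRAP 3, Dab2 passed in Sh + Flx anxious against Gh, with a difference of 0.59 between the change in TRAP and the change in input (edgeR adjusted p = 0.0217), where 2.01% of all genes passed. Fitted apart with all libraries, Dab2 changed by -0.40 in input, which passed, and by 0.17 in TRAP, which did not.

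Fluoxetine-treated mice were then compared with single-housed mice on vehicle in TRAP. Aldh1a2 had 662, 644, 681 and 621 CPM in Sh + Flx anxious and 624, 871, 895 and 681 CPM in Sh + Flx, against 560.1, 207, 141 and 532 CPM in Sh. The Sh libraries did not overlap those of either treated group, as was so for 7.65% of all genes in Sh + Flx and 8.52% in Sh + Flx anxious in this direction, and replicates 2 and 3 of Sh were well below replicates 1 and 4. With all libraries included, Aldh1a2 rose in Sh + Flx (log2 fold change 1.07, SE 0.28, edgeR adjusted p = 0.0335) and in Sh + Flx anxious (log2 fold change 0.88, SE 0.28, edgeR adjusted p = 0.0488).

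Arhgap29 had 1100.4, 1062, 1118 and 1536 CPM in Sh + Flx anxious and 969, 1557, 1604 and 1214 CPM in Sh + Flx, against 925, 333, 542 and 963 CPM in Sh. Again neither treated group overlapped Sh, although the lowest Sh + Flx library lay only just above the highest Sh library. With all libraries, Arhgap29 rose in Sh + Flx (log2 fold change 0.91, SE 0.24, edgeR adjusted p = 0.0370) and in Sh + Flx anxious (log2 fold change 0.80, SE 0.24, edgeR adjusted p = 0.0423). Car13 had 174, 219, 235 and 192 CPM in Sh + Flx anxious and 202, 307, 276 and 236 CPM in Sh + Flx, against 177, 64.3, 63.6 and 179 CPM in Sh. Its Sh libraries overlapped the anxious group and not the Sh + Flx group, and it rose in Sh + Flx alone of these (log2 fold change 1.05, SE 0.26, edgeR adjusted p = 0.0291), with an adjusted p of 0.0587 by edgeR in Sh + Flx anxious. The difference between both treated groups did not pass for Car13, Aldh1a2 or Arhgap29.

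In all, 3 of 10 genes rose and 0 fell in Sh + Flx against Sh, where 6.46% of all genes passed by edgeR and 2.65% rose, and 2 rose and 0 fell in Sh + Flx anxious against Sh, where 10.5% passed and 4.35% rose. The median log2 difference of the 10 was 0.41 and 0.37, against -0.02 and -0.01 for all genes. Leaving out Sh TRAP 2 or Sh TRAP 3 alone, or any library of the treated group, left 0 calls in each comparison, and leaving out Sh TRAP 1 or Sh TRAP 4 gave 4, with Gjb2 among them. The adjusted p of Aldh1a2 in Sh + Flx ran from 0.00629 to 0.0896 over these 8 fits by edgeR. When both Sh TRAP 2 and Sh TRAP 3 were left out, Aldh1a2 rose in Sh + Flx (log2 fold change 0.51, SE 0.12, edgeR adjusted p = 0.0346), and the other 4 calls were lost. Sh then held only Sh TRAP 1 and Sh TRAP 4, a closely alike pair (mean chi-square per gene 2.17) counted as separate samples. If they were not separate pools of mice, these SE are too small. The log2 fold changes were then 0.52 (edgeR adjusted p = 0.107) for Arhgap29 and 0.54 (edgeR adjusted p = 0.0621) for Car13 in Sh + Flx. In Sh + Flx anxious they were 0.41 (edgeR adjusted p = 0.164) for Arhgap29 and 0.31 (edgeR adjusted p = 0.138) for Aldh1a2. Each of the 5 log2 differences was over 1.5 times larger with all libraries, and the medians of the 10 were -0.01 and -0.05 without Sh TRAP 2 and Sh TRAP 3.

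Slc13a4 had the opposite sign. It had 253, 348, 390.4 and 246 CPM in Sh + Flx anxious and 328, 375, 375 and 316 CPM in Sh + Flx, against 535, 208, 157 and 537 CPM in Sh. Replicates 1 and 4 of Sh lay above every treated library and replicates 2 and 3 below. Without those 2 it fell in Sh + Flx (log2 fold change -0.60, SE 0.14, edgeR adjusted p = 0.0333) and in Sh + Flx anxious (log2 fold change -0.74, SE 0.14, edgeR adjusted p = 0.00732), where 2.08% and 4.53% of all genes passed. Sh then held only replicates 1 and 4, the closely alike pair named above, counted as separate samples. With all libraries the log2 fold changes were -0.06 and -0.20, which did not pass.

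In the list of 12 other fibroblast transporters, 4 of which are also among the meningeal markers above, 0 rose and 4 fell in Sh + Flx and 0 rose and 5 fell in Sh + Flx anxious against Sh without those libraries, whereas with all libraries 1, Slc22a2, rose and 0 fell in each. The organic anion transporter gene Slc22a6 fell by 0.72 and by 0.83 on the log2 scale and the GABA transporter gene Slc6a13 by 0.65 and by 0.87. Slc26a2, another sulfate transporter gene, fell by 0.78 in Sh + Flx; it and Slc22a2 were named after their values were seen. The direction of the calls in this list thus differed with and without those libraries.

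**Figure D3:**
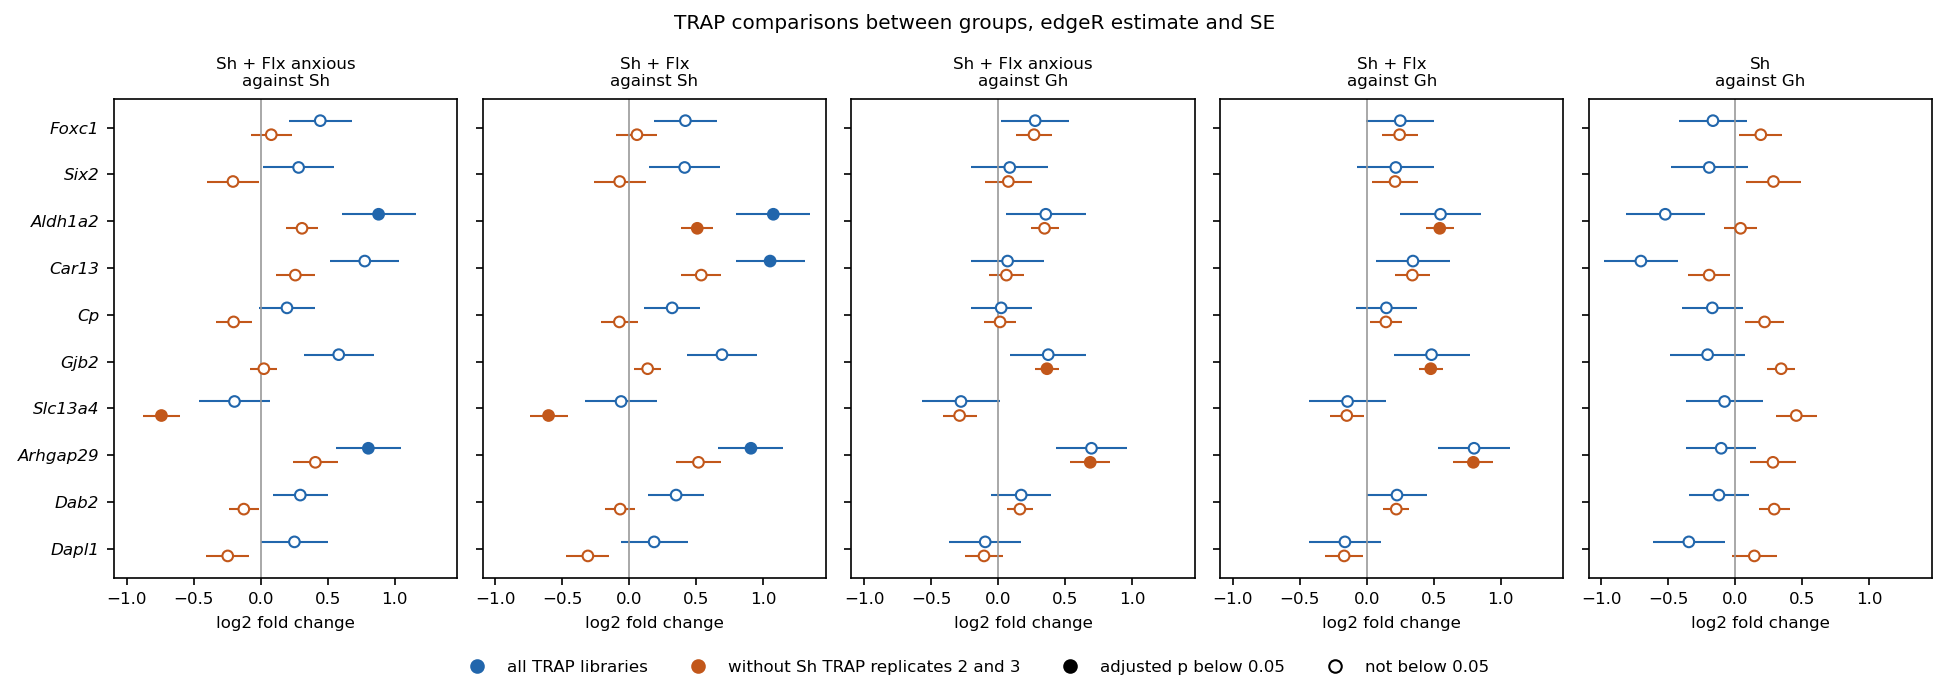
Log2 fold change in TRAP (x axis, with SE) of the 10 genes in 5 comparisons between groups, by edgeR, with all libraries (blue) and without Sh TRAP 2 and Sh TRAP 3 (orange). Filled points passed an adjusted p of 0.05. Against Sh, the estimates lie further to the left without those libraries (median -0.01, against 0.41 with all libraries, in Sh + Flx), while in the treated groups against Gh the estimates are nearly the same and their errors are smaller.

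Against group-housed mice, 0 of 10 genes passed in Sh + Flx anxious (0.0716% of all genes by edgeR), in Sh + Flx (0.00597%) or in Sh (0.0%) with all libraries. In each of these 1 gene had an unadjusted p below 0.05, and DESeq2 called 0 of the 10. In Sh, 2634 of all genes had an unadjusted p below 0.05 and DESeq2 called 209. Gh libraries were close to each other for most of the 10, and 3 genes had treated libraries that did not overlap Gh.

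Aldh1a2 in Gh had 545, 486, 499 and 539 CPM, below all 8 libraries of treated mice. Arhgap29 in Gh had 819, 723, 736 and 757 CPM, and the lowest treated library had 968.8 CPM. Gjb2 had 535, 646, 659 and 579 CPM in Sh + Flx anxious and 660.1, 659.9, 668 and 687 CPM in Sh + Flx, against 467, 508, 504 and 471 CPM in Gh. These were the only members of the 10 whose treated libraries all lay above Gh, in Sh + Flx anxious and in Sh + Flx alike; libraries of 5.25% and 4.79% of all genes did so.

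Sh TRAP 2 and Sh TRAP 3 belong to neither group of the comparisons of treated mice with Gh, and entered these fits through the shared spread, the filter on low counts and the scaling. Without them, Arhgap29 rose in Sh + Flx (log2 fold change 0.80, SE 0.15, edgeR adjusted p = 0.00882) and in Sh + Flx anxious (log2 fold change 0.69, SE 0.15, edgeR adjusted p = 0.0180). Gjb2 rose in Sh + Flx (log2 fold change 0.48, SE 0.09, edgeR adjusted p = 0.00996) and in Sh + Flx anxious (log2 fold change 0.36, SE 0.09, edgeR adjusted p = 0.0384). Aldh1a2 rose in Sh + Flx (log2 fold change 0.55, SE 0.10, edgeR adjusted p = 0.0106), and in Sh + Flx anxious its log2 fold change was 0.35 with an edgeR adjusted p of 0.0893. That made 3 and 2 of the 10 genes, where 1.15% and 2.21% of all genes passed in Sh + Flx and Sh + Flx anxious. Gjb2 was also above Gh in the 2 Sh libraries that remained, 617.03 and 617.48 CPM, within the range of the treated libraries, with a log2 fold change of 0.34 in Sh against Gh that did not pass (edgeR adjusted p = 0.199). Against Sh its log2 fold changes were 0.14 in Sh + Flx and 0.02 in Sh + Flx anxious. Both of these Sh libraries lay above all Gh libraries for 6 of the 10 genes (Foxc1, Cp, Gjb2, Slc13a4, Arhgap29 and Dab2), as for 22.0% of all genes.

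None of the other members passed against Gh. Without Sh TRAP 2 and Sh TRAP 3, the log2 fold changes in Sh + Flx and Sh + Flx anxious against Gh were 0.25 and 0.27 for Foxc1 and 0.21 and 0.08 for Six2. They were 0.34 and 0.06 for Car13, -0.15 and -0.29 for Slc13a4, 0.22 and 0.16 for Dab2, 0.14 and 0.01 for Cp, and -0.17 and -0.10 for Dapl1. Single housing alone gave 0 calls among the 10 with or without Sh TRAP 2 and Sh TRAP 3 (0.0% and 0.0353% of all genes by edgeR), and without them 3 had an unadjusted p below 0.05. The signs of the estimates in Sh against Gh depended on them, with 0 of 10 positive and a median of -0.18 with all libraries and 9 of 10 positive and a median of 0.25 without.

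Between the treated groups, 0 of the 10 genes passed in TRAP by edgeR (0.0% of all genes), by DESeq2 or at an unadjusted p below 0.05. Gjb2 was the 1 gene whose libraries did not overlap, lower in Sh + Flx anxious than in Sh + Flx, as were those of 2.78% of all genes, and its log2 fold change was -0.11 with an SE of 0.26.

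Aldh1a2 stands within a pathway in which Stra6 takes retinol into the cell from its plasma carrier Rbp4, Rdh10 oxidizes it to retinaldehyde, Aldh1a1 and Aldh1a2 make retinoic acid, Crabp2 carries this to receptors such as Rarb, and Cyp26b1 breaks it down. Of 16 tested genes of the pathway other than Aldh1a2, 3 rose and 0 fell in Sh + Flx and 2 rose and 1 fell in Sh + Flx anxious against Sh with all libraries, where 6.46% and 10.5% of all genes passed by edgeR. Without Sh TRAP 2 and Sh TRAP 3, Cyp26b1 fell against Sh in both (log2 fold changes -1.35 and -1.62), where 2.08% and 4.53% of all genes passed. Stra6 and Rbp4 still rose in both, and Rdh10 no longer passed in Sh + Flx. Against Gh, 0 passed with all libraries, and without Sh TRAP 2 and Sh TRAP 3, 4 rose and 0 fell in Sh + Flx and 3 rose and 1 fell in Sh + Flx anxious (1.15% and 2.21% of all genes).

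Of the pathway genes that passed, Stra6 had the largest difference. It had 244, 239.9, 280.3 and 168 CPM in Sh + Flx anxious and 183, 195, 199 and 166 CPM in Sh + Flx, against 85.99, 21.9, 7.901 and 75.5 CPM in Sh and 71.7, 59.99, 58.9 and 71.3 CPM in Gh. All treated libraries lay above all vehicle libraries. Stra6 rose in Sh + Flx against Sh (log2 fold change 1.95, SE 0.43, edgeR adjusted p = 0.0199) and in Sh + Flx anxious against Sh (log2 fold change 2.32, SE 0.43, edgeR adjusted p = 0.00664), and also without Sh TRAP 2 and Sh TRAP 3 (log2 fold change 1.22, SE 0.16, edgeR adjusted p = 0.000941 in Sh + Flx). Against Gh without those libraries the log2 fold changes were 1.46 in Sh + Flx and 1.82 in Sh + Flx anxious. In input, where the pull-down plays no part, Stra6 also rose in Sh + Flx (0.94) and Sh + Flx anxious (0.88) against Gh. Rara, named after its values were seen, rose there by 0.81 and 1.10, where 5.31% and 11.5% of all genes passed. Rarb fell in input by 0.41 in Sh + Flx anxious against Sh (edgeR adjusted p = 0.0445), where 6.86% passed, unlike its rise against Gh in TRAP given below.

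Aldh1a1, Crabp2 and Rxra, which encodes a partner of the retinoic acid receptors, did not pass in any TRAP comparison between groups, with log2 fold changes against Gh of 0.27, -0.09 and 0.25 in Sh + Flx without Sh TRAP 2 and Sh TRAP 3. Rbp4, Rdh10, Rarb and Cyp26b1 were named after their values were seen. Against Gh without those libraries, Rbp4 rose by 1.24 and 1.09 in Sh + Flx and Sh + Flx anxious, Rarb by 0.91 and 0.82, and Rdh10 by 0.94 in Sh + Flx, while Cyp26b1 fell by 0.97 in Sh + Flx anxious.

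**Figure D4:**
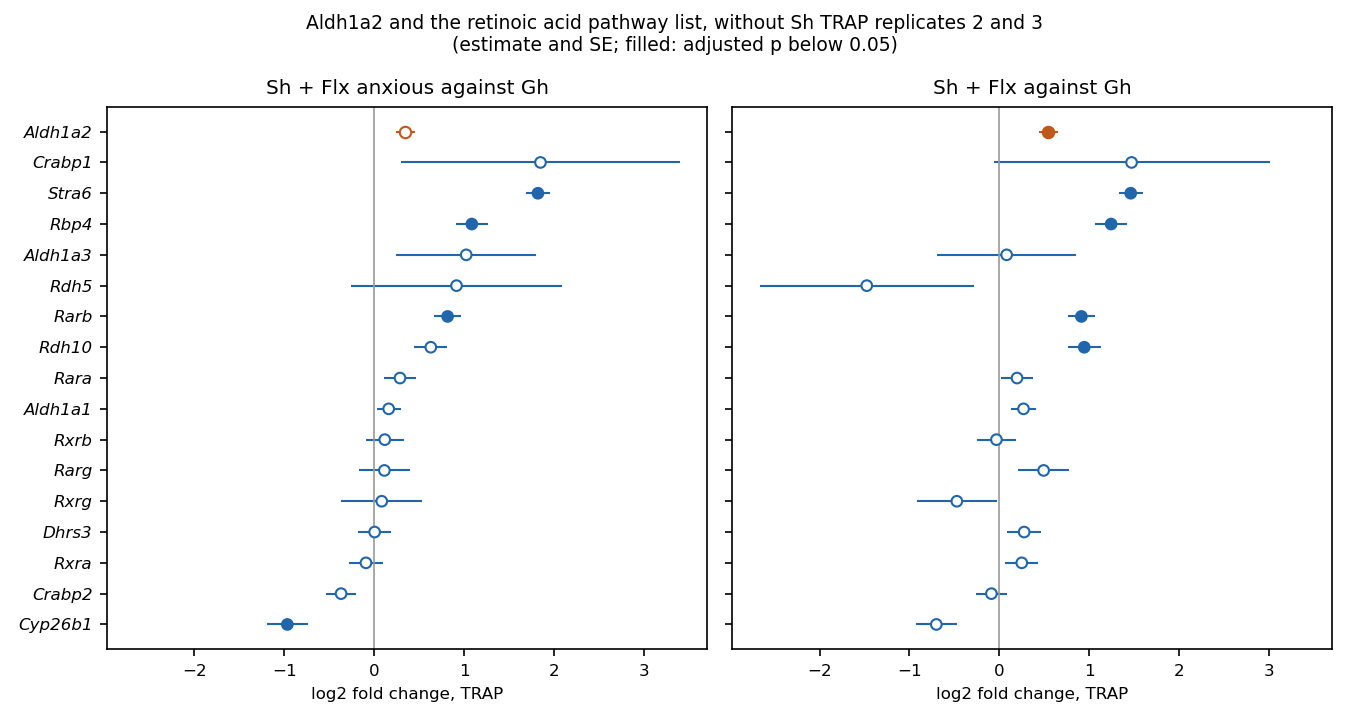
Log2 fold change in TRAP (x axis, with SE) of Aldh1a2 (orange, top) and 16 other retinoic acid pathway genes (blue) in both fluoxetine groups against Gh, by edgeR without Sh TRAP 2 and Sh TRAP 3. Filled points passed an adjusted p of 0.05: 4 of the 16 rose in Sh + Flx, Stra6 the most of these at 1.46, and in Sh + Flx anxious 3 rose and Cyp26b1 fell.

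In whole cortex the 10 genes were present at low levels, and 9 could be tested. Slc13a4 had 5.07, 9.33, 6.297 and 4.89 CPM in Sh + Flx anxious, 5.89, 6.77, 6.62 and 4.71 CPM in Sh + Flx, 9.16, 9.83, 8.33 and 10.7 CPM in Sh and 7.94, 10.5, 8.19 and 8.95 CPM in Gh. All Sh + Flx libraries and 3 of 4 Sh + Flx anxious libraries lay below all vehicle libraries. Input libraries of Sh + Flx lay wholly below Gh for 4.4% of all genes and wholly below Sh for 4.1%. Slc13a4 fell in Sh + Flx against Sh (log2 fold change -0.66, SE 0.17, edgeR adjusted p = 0.0305) and against Gh (log2 fold change -0.58, SE 0.17, edgeR adjusted p = 0.0395), and in Sh + Flx anxious against Sh (log2 fold change -0.58, SE 0.17, edgeR adjusted p = 0.0364), while its edgeR adjusted p was 0.0534 in Sh + Flx anxious against Gh. It was the only one of the 9 called in the first 3 of these, where 2.62%, 5.31% and 6.86% of all genes passed. Its sign held when each library was left out in turn, with log2 fold changes of -0.73 to -0.56 in Sh + Flx against Sh, but it then passed in 3 of 8 fits there (edgeR adjusted p 0.0385 to 0.123), in 2 of 8 in Sh + Flx against Gh (0.0396 to 0.147) and in 2 of 8 in Sh + Flx anxious against Sh (0.00166 to 0.153). The calls were lost without Sh 1, 2 or 4, Gh 2, 3 or 4, or several of the treated libraries.

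Slc13a4 is also known from the choroid plexus. The summed CPM of 12 choroid plexus markers in input was 150.5 to 292.5 in Sh + Flx anxious, 235 to 299 in Sh + Flx, 323 to 372 in Sh and 349 to 462 in Gh, with none of them at 0. The summed CPM of the 36 meningeal fibroblast markers was 252 to 338 in Sh + Flx anxious, 304 to 361 in Sh + Flx, 355 to 392 in Sh and 355 to 385 in Gh. The choroid plexus sum was below Sh and Gh in both treated groups. The fibroblast sum was below them in Sh + Flx anxious, but in Sh + Flx it overlapped both. Ptgds and Igf2, whose input levels are given above, are part of the fibroblast sum. The part of either sum in the difference of Slc13a4 was not tested. Igf2, Ptgds and Slc22a6 of the meningeal list fell in Sh + Flx anxious against Gh by 1.17, 0.64 and 1.01 on the log2 scale, where 2 of 35 tested genes of the list rose and 7 fell.

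Dab2 had 16.3, 18.5, 18.002 and 17.2 CPM in Sh + Flx anxious, 18.3, 23.5, 24.2 and 20.7 CPM in Sh + Flx, 24.9, 23.96, 19.3 and 19.2 CPM in Sh and 19.6, 22.998, 24.9 and 23.9 CPM in Gh. Every anxious library lay below every vehicle library, as for 5.85% of all genes against Gh and 5.77% against Sh. Dab2 fell in Sh + Flx anxious against Gh (log2 fold change -0.40, SE 0.11, edgeR adjusted p = 0.0142), the only one of 9 called there, where 11.5% of all genes passed, and its edgeR adjusted p against Sh was 0.0840. Only leaving out Gh 3 lost this call (adjusted p = 0.0586). In TRAP the log2 fold change of Dab2 in Sh + Flx anxious against Gh was 0.17, which did not pass.

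Aldh1a2 in input had 9.24, 9.997, 8.15 and 10.9 CPM in Sh + Flx anxious, 11.2, 13.3, 12.99 and 12.6 CPM in Sh + Flx, 9.52, 9.32, 10.3 and 11.1 CPM in Sh and 10.4, 10.9, 10.6 and 7.57 CPM in Gh. The Sh + Flx libraries lay above all the others (6.86% of all genes against Gh and 5.09% against Sh, and 2.92% for Sh + Flx anxious below Sh + Flx), and no comparison passed: the log2 fold change in Sh + Flx was 0.33 against Gh (edgeR adjusted p = 0.152), and that of Sh + Flx anxious against Sh + Flx was -0.38 (adjusted p = 0.374). Gjb2 averaged 10.9 ± 1.58 CPM in Sh + Flx anxious, 12.8 ± 0.882 CPM in Sh + Flx, 10.4 ± 1.496 CPM in Sh and 11.01 ± 1.16 CPM in Gh (SD, n = 4 each), and did not pass in any comparison. Arhgap29 averaged 34.8 ± 3.16 CPM in Sh + Flx anxious, 37.9 ± 2.69 CPM in Sh + Flx, 32.5 ± 4.26 CPM in Sh and 32.1 ± 3.34 CPM in Gh (SD, n = 4 each). Foxc1, Six2, Car13 and Cp did not pass in any input comparison. By edgeR 0 of 9 were called in Sh against Gh (0.0829% of all genes; 0 at an unadjusted p below 0.05) and in Sh + Flx anxious against Sh + Flx (0.127%; 2 at an unadjusted p below 0.05), and DESeq2 called 0 in both.

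**Figure D5:**
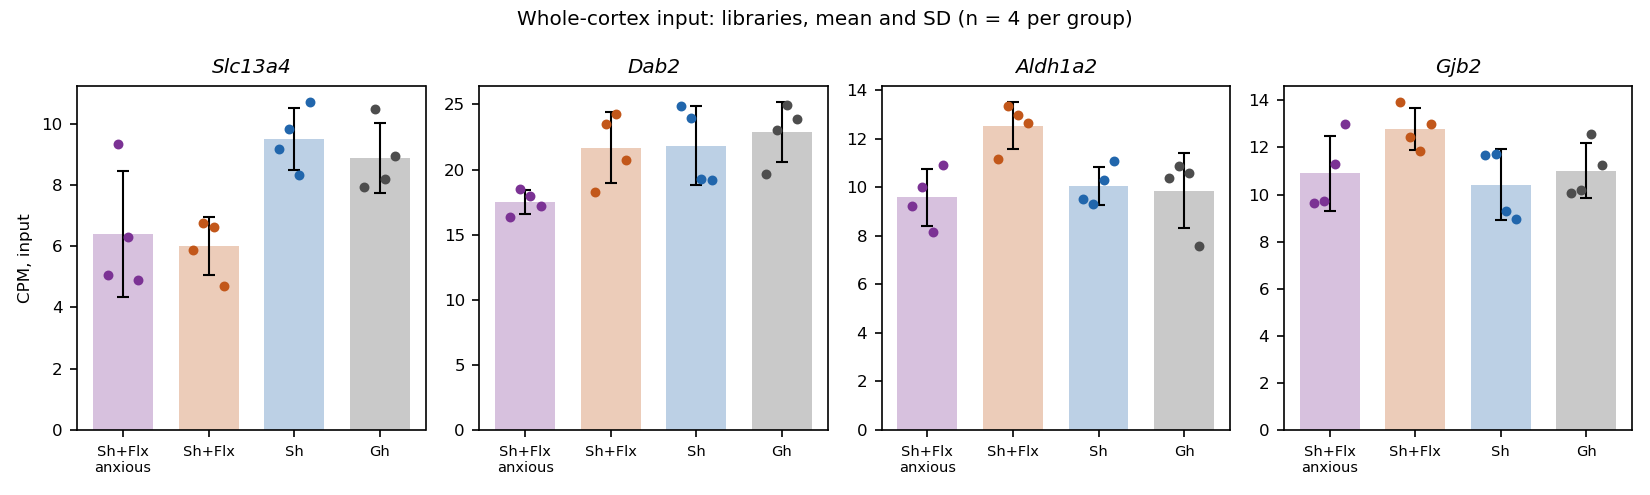
CPM in whole-cortex input of Slc13a4, Dab2, Aldh1a2 and Gjb2 by group, with single libraries as points, the mean as a bar and the SD as an error bar (n = 4 per group). Slc13a4 is lower in both fluoxetine groups (4.71 to 9.33 CPM) than in Sh and Gh (7.94 to 10.7 CPM), with 1 anxious library among the vehicle values, and Dab2 is lowest in Sh + Flx anxious (16.3 to 18.5 CPM).

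The 10 genes varied together across TRAP libraries. Over 15 TRAP units the Pearson r between pairs of the 10 genes had a median of 0.82 and ran from 0.31 (Slc13a4 and Arhgap29) to 0.96 (Aldh1a2 and Car13). Without Sh TRAP 2 and Sh TRAP 3, over 13 units, the median was 0.41, with Slc13a4 and Arhgap29 at -0.45 and Aldh1a2 and Arhgap29 at 0.88. Over 16 input libraries the median was 0.12. These are descriptions, since libraries share groups, depth and the pull-down. The genes outside the 10 most like their mean were Cped1 (r = 0.99), Tmem64 (0.988), Ctxn3 (0.981), Samd9l (0.977) and Sepp1 (0.977), followed by Gjb6, Pbx3, Rsu1, Foxc2 and Anxa4 (0.976 to 0.969). Without Sh TRAP 2 and Sh TRAP 3 these r values were 0.928 for Cped1 and 0.732 to 0.881 for the others.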

How the data were processed

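Polysome-bound RNA (TRAP) and whole-cortex RNA (input) of S100a10 bacTRAP mice were measured in 32 libraries. The authors amplified the RNA with Ovation RNA-Seq System V2, which does not mark strand, and sequenced 75-base paired ends. The submitters' processing notes name TopHat2 2.0.11, mm10, Cufflinks 2.2.1, edgeR 3.8.6 and DESeq2. The authors deposited raw counts per gene, which were used here. The sources used here do not state how reads were counted or whether by strand. Reads of genes overlapping on opposite strands can therefore not be told apart. Library sizes leave out 5 lines of each file without a gene name (reads outside features: 25.2% to 58.6% of all in TRAP and 45.1% to 55.2% in input; ambiguous reads: 0.331% to 0.724%). The 6 deposited comparison tables hold group means and the authors' own comparisons and were not used. CPM of single libraries are relative to library size alone, and log2 fold changes come from edgeR fits with TMM scaling.

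edgeR 4.0.16 (quasi-likelihood test, filterByExpr, Benjamini-Hochberg adjusted p below 0.05 over all genes tested) in R 4.3.3 was fitted over all 4 groups to 15 TRAP samples (16754 genes), 16 input samples (15690 genes) and both together (17015 genes). Alternatives were DESeq2 1.42.0, its size factors in edgeR, library size alone, no filter on low counts, a replicate block, only the groups compared, Gh TRAP 2 and 3 kept separate, each library left out, and Sh TRAP 2 and 3 left out. Tables and figures were made with Python 3.11.15, pandas 2.3.3 and matplotlib 3.10.9. The fits were tested on simulated counts of Sh + Flx against Sh with 200 changed genes. Simulated libraries were drawn independently, without the likeness among replicates or the shift that Sh TRAP 2 and 3 share. The false shares therefore need not hold for the calls against Sh in TRAP. In TRAP, edgeR recovered 5.26%, 32.9% and 74% of 1.5-fold, 2-fold and 3-fold changes, with 3.61% of calls false. DESeq2 recovered 12.3%, 47.1% and 79.5% there, with 16.9% false. In input, edgeR recovered 62.7%, 82.6% and 90.6%, with 5.99% false. A gene that did not pass in TRAP may therefore still have changed by such amounts. The labels call the libraries of a group replicates. Where these were not separate pools of mice, p-values measure only a technical spread.

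The 10 genes and the marker and pathway lists were chosen with earlier results of these data known. Named from each list were up to 4 genes with the highest mean CPM in TRAP and, among relatives of a member, the one with the largest TRAP over input difference. Genes most like the 10 had the highest Pearson r of log2 CPM (prior count 2) with their mean over 15 TRAP samples, without predicted gene models. Coordinates, exon lengths and promoters are from RefSeq, GRCm38.p6, the assembly that mm10 names. Some genes of these lists are not reported here by name.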

Additional observations from a re-analysis of the deposited data

Results flagged for a closer look

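Within 70 groups of 4 libraries (10 genes, 7 groups), the library at one end was tested against Dixon's critical value for 4 samples, which chance exceeds in about 1 of 20 groups. It was exceeded in 4 groups. Arhgap29 had 1535.5 CPM in Sh + Flx anxious TRAP 4, far above the other anxious TRAP libraries (1062 to 1118 CPM), and 38.8 CPM in Sh input 4, above the other Sh input libraries (29.5 to 30.9 CPM). Car13 had 3.13 CPM in Gh input 2, against 1.89 to 2.005 CPM in the other Gh input libraries. Aldh1a2 had 7.57 CPM in Gh input 4, against 10.4 to 10.9 CPM in the other Gh input libraries.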

How the results depend on the processing

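Against Gh in TRAP, 3 genes were called in Sh + Flx and 2 in Sh + Flx anxious without Sh TRAP 2 and 3 (1.15% and 2.21% of all genes). When only the groups compared were fitted, 3 and 1 were called (0.848% and 1.78% of all genes), against 0 and 0 with all libraries. Against Sh in TRAP, the 3 calls in Sh + Flx became 0 with only the groups compared, where 0.0% of all genes passed. The 2 calls in Sh + Flx anxious became 1 with the size factors of DESeq2 and 0 with library size alone. They also became 0 with only the groups compared, where 0.484% of all genes passed. Without Sh TRAP 2 and 3 both calls in Sh + Flx anxious against Sh were lost and 1 other gene, Slc13a4, was called lower. In input, the call in Sh + Flx against Gh was lost with library size alone (0), and 2 genes were called in Sh + Flx anxious against Gh by DESeq2. In TRAP, r within a group ran from -0.34 to 0.88 for replicates 1 and 4, from -0.09 to 0.76 for 2 and 3, and from -0.81 to -0.32 for other pairs, with no batch in the labels. When 1 and 4, and 2 and 3, were summed, an alternative chosen after the libraries had been compared, 0 of the genes were called in any comparison between groups. The change in Sh + Flx anxious against Gh that differed between TRAP and input was called for 1 gene without Sh TRAP 2 and 3. The causes were not tested.

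Replicate numbers did not pair the samples across groups (r of -0.14 to 0.13 in TRAP and -0.06 to 0.07 in input). A replicate block gave 2 calls in Sh + Flx anxious against Gh in input and otherwise left the counts among the 10 as they were.

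The median TRAP over input difference in Gh was 5.42 with the size factors of DESeq2, 5.59 with library size alone and 5.43 without Sh TRAP 2 and 3. With library size alone, which put the median of all genes in Gh at 0.17 in place of -0.06, it was 5.90 in Sh + Flx and 5.94 in Sh + Flx anxious. When each library was left out in turn it ranged from 5.73 to 5.84 in Sh + Flx anxious, 5.63 to 5.75 in Sh + Flx, 4.85 to 5.35 in Sh and 5.30 to 5.42 in Gh. The counts of genes called then ranged from 0 to 4 in each treated group against Sh in TRAP, from 0 to 2 in Sh + Flx anxious against Gh in input, and from 0 to 1 in Sh + Flx against Gh and in each treated group against Sh in input. No called value changed sign under any alternative. Of 90 estimates of single genes, 25 changed sign without Sh TRAP 2 and 3, none of them called. Six2 and Dapl1 had under 1 CPM in most input libraries, so that smaller differences in input could not be seen for these.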

Other observations

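Partners of the 10 genes were compared between TRAP and input in Gh, where 20.3% of all genes were higher and 21.9% lower. Of 11 endocytic partners of Dab2, 4 were higher and 5 lower in TRAP (median log2 difference -0.14), and the lipoprotein receptor gene Lrp1 differed by 0.87 and the clathrin heavy chain gene Cltc by -0.14. Of 9 genes of iron transport and storage, 2 were higher and 3 lower (median -0.35), and the ferritin heavy chain gene Fth1 differed by -1.17, in contrast to the ferroxidase gene Cp. Of 9 microglial markers 2 were higher and 0 lower (median 0.28), of 9 astrocyte markers 2 were higher and 2 lower (median 0.04), and of 5 ependymal markers 4 were higher and 0 lower (median 2.03). Gja1 and Gjb6, which lie in the astrocyte list, are also connexin genes of the meninges.

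The meningeal list holds matrix and signaling genes besides transporters. Without Sh TRAP 2 and 3, Col1a1 and Col3a1, which encode chains of fibrillar collagens, rose in Sh + Flx anxious against Gh by 1.14 and 1.22 on the log2 scale, and Thbd, which encodes thrombomodulin, by 0.93, while Igf2 fell by 0.71. Of the 36 genes, 7 rose and 2 fell in that comparison and 4 rose and 1 fell in Sh + Flx against Gh, where 2.21% and 1.15% of all genes passed by edgeR. With all libraries 0 of them passed in either. Col1a1 and Col3a1 were named after their values were seen.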
